A study of Drosophila melanogaster with 36 samples.

Results

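Ace, Nlg1, Nlg3 and Nlg4 are 4 of the 159 genes named on a spotted array of Drosophila melanogaster detoxification genes. They were taken by symbol, as every spot that the table of probe genes gives to 1 of these symbols. Ace (Entrez gene 41625) encodes acetylcholinesterase, and Nlg1 (40913), Nlg3 (40912) and Nlg4 (42402) encode neuroligins. Ace, Nlg1 and Nlg4 had 4 spots each, as did 155 of the 159 named genes, and Nlg3 had 12.

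Acetylcholinesterase ends transmission at cholinergic synapses by splitting acetylcholine, and in the fly it is the enzyme that organophosphate insecticides block. Neuroligins are membrane proteins of the postsynaptic side that bind neurexins across the synaptic cleft. Their extracellular part has the fold of acetylcholinesterase but lacks its enzyme activity, which sets them apart from the esterases of the same family that break down insecticides.

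All flies were of the y cn bw sp strain, exposed and control alike. Larvae of the 3rd instar, 4.5 days old when frozen, were kept for 4 h on food that held 1 of 7 compounds, and their controls on food without it. Caffeine was given at 1.5 mg/ml and phenobarbital, a barbiturate used to induce detoxification genes, at 10 mM. The insect growth regulators were dicyclanil at 0.067% and lufenuron, which blocks chitin formation, at 20 ppm. The insecticides that act on nerves were the organophosphate diazinon at 0.013%, spinosad at 6e-05% and the neonicotinoid nitenpyram at 6 ppm. Spinosad and nitenpyram act on nicotinic acetylcholine receptors, and diazinon becomes an inhibitor of acetylcholinesterase after activation in the body. Adult males, held for 4 days after emergence, spent 4 h in vials coated from 150 µl of acetone that had carried 10 µg of DDT, which acts on nerve sodium channels, or 10 µl of 1 M phenobarbital, and their controls in vials coated from acetone.

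In each exposure RNA of 8 samples of 50 exposed animals was pooled, as was that of 8 samples of 50 controls, and the 9 resulting pairs were each put on 4 arrays, 2 per dye orientation. The 4 arrays are technical repeats of 1 pair of pools, so the p-values for an exposure compare 2 RNA pools and hold nothing of the spread between cultures. The deposited values were log2 ratios of the dyes with no direction given. They were read as Cy5 over Cy3 and turned to exposed over control, and if that reading were wrong every "higher" and "lower" here would swap. Array 4 of the DDT males and array 4 of the phenobarbital males held identical values in 1936 of 1936 spots and both were left out, which left 34 arrays, 4 for each larval exposure and 3 for each adult one. Array medians ran from -1.95 to 0.63 as deposited. The median over named genes was therefore subtracted on each array, and every ratio here is relative to it. Signal intensities were not used here, so the strength of signal is unknown, and whole animals were extracted, so fewer cells of a type and less RNA per cell cannot be told apart.

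The 4 genes were not measured equally well. Every probe was printed as neighbouring spots at a pair of sites, which gives a repeat within each array. For Ace the median gap between the sites was 0.15 on the log2 scale over 34 arrays. Nlg3 had a median gap of 0.662, Nlg1 of 0.833 and Nlg4 of 1.53, against a median of 0.455 over all named genes. Nlg4 ranked 157 of 159 in this gap, counted from the smallest.

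A further measure, chosen after the values had been seen, was the share of spot values that equal the log2 of a ratio of whole numbers up to 20, within 0.0005. It was 11.0% for Ace, 31.3% for Nlg1, 30.6% for Nlg3 and 37.2% for Nlg4, against 25.1% for all named genes. Ace thus lay among the better repeated genes and the 3 neuroligins above the median of the array on both measures, as the plot of spot agreement shows. Empty or unusable values made up 0% of the Ace values, 1.47% for Nlg1, 11.0% for Nlg3 and 5.15% for Nlg4.

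**Figure D1:**
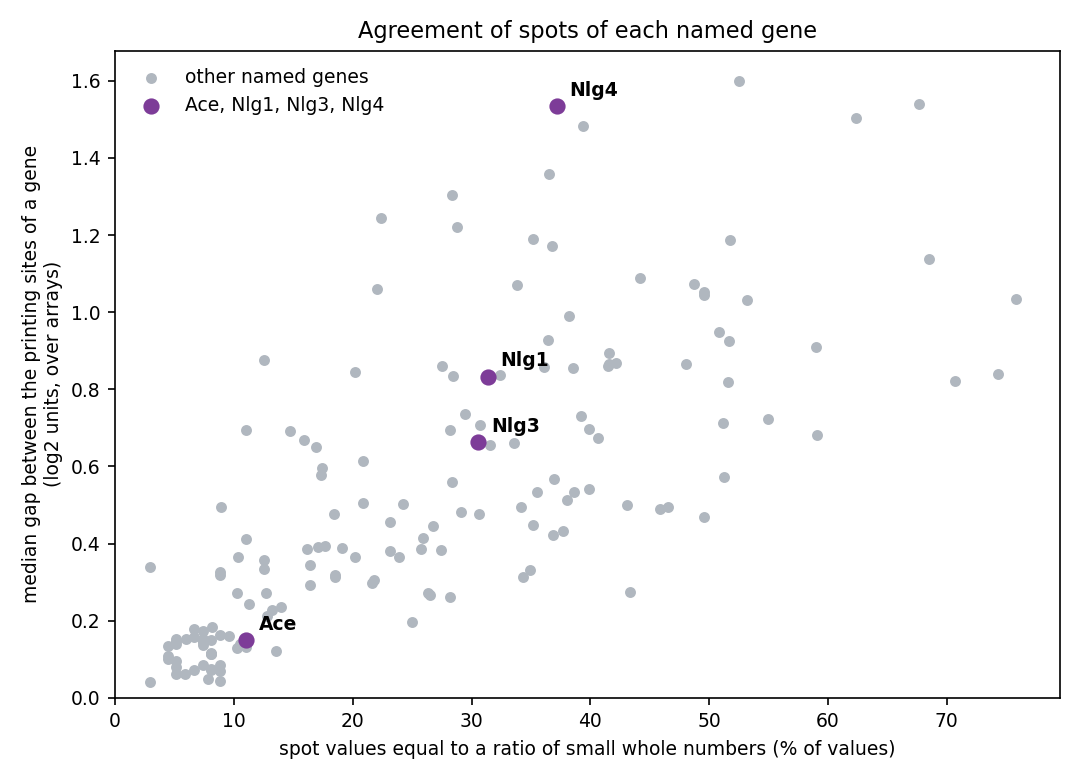
Each point is 1 of 159 named genes, with the share of its spot values that equal a ratio of small whole numbers on the horizontal axis (percent) and the median gap between its printing sites on the vertical axis (log2 units, over 34 arrays). Ace lies at 11.0% and 0.15 and Nlg4 at 37.2% and 1.53.

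By a term common to all exposures, dye orientation weighed more heavily on Nlg4 and Nlg1 than on Nlg3 or Ace. In a fit with a dye term common to all exposures, Nlg4 read 0.76 lower and Nlg1 0.55 lower in log2 units when the exposed pool carried Cy5 than the balanced value, with terms of -0.76 ± 0.10 and -0.55 ± 0.08 (SE). The term was -0.21 ± 0.05 for Nlg3, smaller in size than the 0.35 ± 0.07 for Ace. Counted from the lowest of 159 genes, the terms ranked 12 for Nlg4, 27 for Nlg1, 59 for Nlg3 and 121 for Ace. The split by dye varied between exposures, which a common term does not follow. With nitenpyram Ace averaged 1.14 on the Cy5 arrays and -0.97 on the Cy3 arrays, about as wide a split as for Nlg1 (-0.79 and 1.21). With dicyclanil Ace averaged -0.09 and -0.11. Arrays of opposite orientation fell on opposite sides of 0 in 8 of 9 exposures for Nlg4, 7 of 9 for Nlg1, 6 of 9 for Nlg3 and 3 of 9 for Ace. In 24 of the 36 pairs of gene and exposure the orientations thus disagreed in sign. Over all named genes the same held for 64.8% of pairs, a similar share, so this count did not set these genes apart.

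A value was called where limma's Benjamini-Hochberg adjusted p over all 159 genes was under 0.05 and the ratio was at least 1.5-fold. The error of a gene was estimated over all 34 arrays together, so the SE of a fitted ratio does not follow the spread of the arrays of that exposure. Ace had an SE of 0.20 both with nitenpyram, where the SD of its arrays was 1.23, and with diazinon, where it was 0.19. Of the 36 pairs of gene and exposure 2 were called. Ace was higher in DDT males than in their controls, where 6.29% of all genes were called, and Nlg1 was lower in phenobarbital larvae than in theirs, where 43.4% were. The other 34 values were not called. At an unadjusted p under 0.05 in limma there were 4, which added Nlg4 in phenobarbital males and Nlg3 in nitenpyram larvae. Of all 159 genes, 41 reached that in phenobarbital males, 9 in nitenpyram larvae, 29 in DDT males and 86 in phenobarbital larvae.

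**Figure D2:**
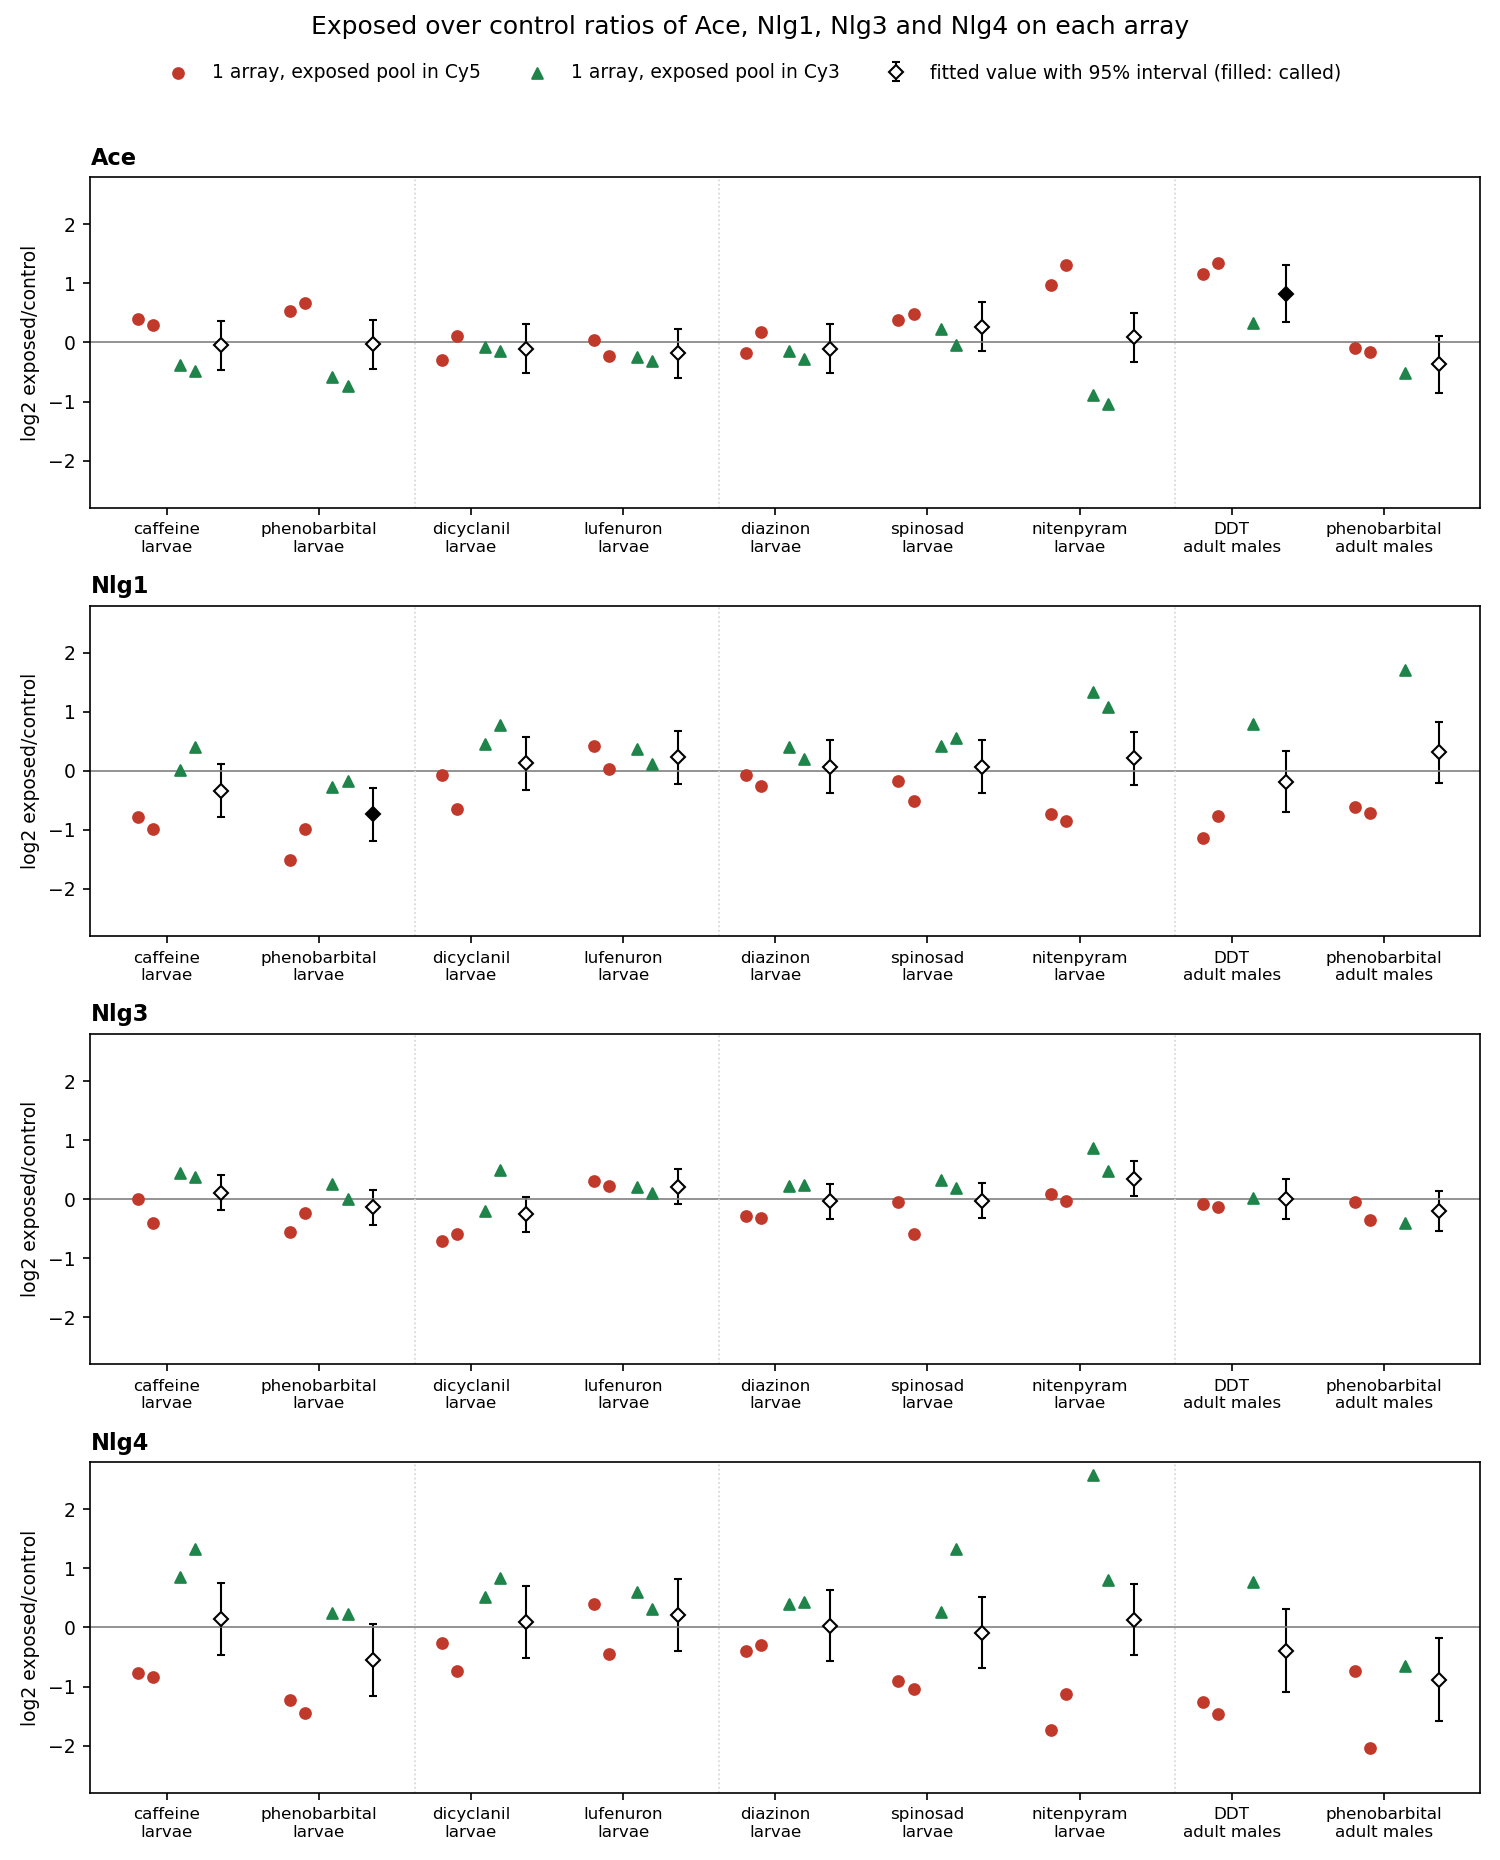
Log2 ratio of exposed over control for each gene on each array (vertical axis), by exposure (horizontal axis). Red circles are arrays with the exposed pool in Cy5 and green triangles arrays with it in Cy3, and diamonds are fitted values with 95% intervals, filled where called. Ace stood above 0 on 3 of 3 DDT arrays, and Nlg1 below 0 on 4 of 4 arrays of phenobarbital larvae.

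Ace had log2 ratios of 1.17, 0.32 and 1.34 on the arrays of DDT males. All 3 were above 0, and the arrays with the exposed pool in Cy5 were the higher ones. The fitted ratio was 0.83 ± 0.24 (SE, n = 3 arrays), a 1.78-fold higher level, with a 95% interval of 0.35 to 1.31 and an adjusted p of 0.0274. Ace ranked 5 of 159 from the top in DDT males, where 10 genes or 6.29% of those tested were called. Its printing sites gave 1.41 and 0.92 on array 1, 0.37 and 0.28 on array 2, and 1.44 and 1.25 on array 3, so the sites stood on the same side on each array. The label of array 1 gives the exposed males another age than their controls and the other adult labels. Without that array the ratio was 0.83 and without array 3 it was 0.74, and neither was called (adjusted p = 0.198 and 0.256).

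The DDT value for Ace stayed above 0 in all 18 alternatives run, between 0.52 and 0.94, and was called in 10 of them. It was not called with the values as deposited, with arrays scaled to a common spread, with no dye term, with the first printing site alone, with small whole-number values left out (adjusted p = 0.0512) or with the array number as a block (0.80, adjusted p = 0.0536). In the same pair of pools the 3 neuroligins had ratios of -0.18 ± 0.25 for Nlg1, 0.0014 ± 0.17 for Nlg3 and -0.40 ± 0.34 for Nlg4, and none was called.

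Diazinon is the compound of the series whose active form blocks the product of Ace. Ace had log2 ratios of -0.17, -0.15, 0.17 and -0.28 in diazinon larvae. The averages lay on either side of 0, and on the Cy5 arrays the printing sites read on opposite sides of it, with -0.945 and 0.60 on array 1 and -0.19 and 0.53 on array 3. The fitted ratio was -0.11 ± 0.20 (n = 4 arrays), with a 95% interval of -0.52 to 0.31, and it was not called. No gene was called in diazinon larvae, 0% of those tested, and 2 had an unadjusted p under 0.05. Set against the other 6 larval exposures, with each pool pair as 1 value, Ace with diazinon differed by -0.11 ± 0.23 (95% interval -0.66 to 0.44).

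The receptor ligands spinosad and nitenpyram gave different pictures on the arrays. Ace had ratios of 0.38, 0.23, 0.49 and -0.05 with spinosad, of which 3 of 4 were above 0, and a fitted ratio of 0.26 ± 0.20 that was not called. With nitenpyram it had 0.97, -0.89, 1.32 and -1.04. There the arrays with the exposed pool in Cy5 were high and those with it in Cy3 were low by about as much, and the fitted ratio was 0.09 ± 0.20. No gene was called in spinosad larvae (0%, with 4 at an unadjusted p under 0.05 in limma) and 1 in nitenpyram larvae (0.629%).

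In the growth regulators Ace lay slightly below 0, at -0.10 ± 0.20 with dicyclanil and -0.18 ± 0.20 with lufenuron. Caffeine larvae had a ratio of -0.05 ± 0.20 for Ace and phenobarbital males -0.37 ± 0.24, with -0.09, -0.51 and -0.17 on the arrays. None of these was called. Caffeine called 28 genes (17.6%), dicyclanil 2 (1.26%), lufenuron 0 (0%, with 1 at an unadjusted p under 0.05) and phenobarbital males 29 (18.2%), none of them Ace or a neuroligin.

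Ace in phenobarbital larvae depended on what the arrays were centred on. Its arrays read 0.54, -0.58, 0.67 and -0.73, again high in Cy5 and low in Cy3, and the fitted ratio was -0.03 ± 0.20. The 4 genes used as controls, a glycolytic enzyme and 3 ribosomal proteins, all fell in these larvae: Gapdh1 by 0.89 ± 0.19, RpL10Aa by 0.67 ± 0.20, RpS20 by 0.67 ± 0.21 and RpS21 by 0.63 ± 0.16 on the log2 scale. Centred on those control genes, Ace was higher in phenobarbital larvae by 0.69 and called (adjusted p = 2.55e-05), and with values as deposited by 0.75 (adjusted p = 0.042). Which of these centres holds for phenobarbital larvae was not tested.

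Nlg1, whose fly protein has been studied at the larval neuromuscular junction, had ratios of -1.51, -0.27, -0.99 and -0.17 in phenobarbital larvae. All 4 were below 0, and the Cy5 arrays were lower than the Cy3 ones. The fitted ratio was -0.74 ± 0.22 (n = 4 arrays, 95% interval -1.18 to -0.29), a 1.66-fold lower level with an adjusted p of 0.00623. In phenobarbital larvae 69 genes or 43.4% of those tested were called and Nlg1 ranked 133 of 159 from the top, so many genes were lower than it. Its fall was about that of the control genes above: centred on them it was -0.02, and with values as deposited 0.044, on the other side of 0. It kept the call in each of the 4 fits that left out an array, at -0.84 to -0.66. It was called in 12 of 19 alternatives in all. Besides those centres it lost the call when centred on all spots (-0.50, adjusted p = 0.204), with arrays scaled to a common spread (-0.47, adjusted p = 0.075), with no dye term (-0.74, adjusted p = 0.129) and with the first or the second printing site alone (-0.66 and -0.75, adjusted p = 0.148 and 0.117).

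In phenobarbital males Nlg1 had -0.61, 1.70 and -0.71, so that 1 array stood high and the other 2 low. That high value came from the only Cy3 array left, where its printing sites gave 0.98 and 2.42. The fitted ratio was 0.31 ± 0.25 and was not called. Caffeine larvae had the next lowest Nlg1 ratio after phenobarbital larvae, -0.34 ± 0.22, with -0.78, 0.01, -0.99 and 0.41 on the arrays. Neither this nor the values with lufenuron (0.23 ± 0.22), nitenpyram (0.21 ± 0.22), dicyclanil (0.13 ± 0.22), spinosad (0.07 ± 0.22) and diazinon (0.07 ± 0.22) was called.

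Nlg4 had its lowest ratios with phenobarbital, in males and in larvae. The arrays of phenobarbital males read -0.73, -0.65 and -2.05, all below 0. The fitted ratio was -0.89 ± 0.34 (n = 3 arrays, 95% interval -1.59 to -0.18), with an adjusted p of 0.0778, and missed the call. The printing sites did not agree there: on array 3 they gave -0.66 and -3.44 and on array 2 0.60 and -3.14, the last from 1 spot. With the first site alone the ratio was 0.12, and with the second alone it was -2.39 and called (adjusted p = 0.0213). It was also called with arrays scaled to a common spread (-1.13), with a dye term per exposure (-1.02) and without array 1 (-1.35).

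In phenobarbital larvae Nlg4 had -1.22, 0.25, -1.45 and 0.23, split by dye orientation, and a fitted ratio of -0.55 ± 0.30 that was not called. The widest split was with nitenpyram, where Nlg4 had -1.73, 2.57, -1.13 and 0.81 and a fitted ratio of 0.13 ± 0.30. In the remaining larval exposures its fitted ratios lay between -0.09 and 0.21, each with an SE of 0.30, and none was called.

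Nlg3 had the narrowest spread of the 4 genes, with fitted ratios from -0.25 with dicyclanil to 0.35 with nitenpyram and an SD of 0.19 over the 9 exposures. The SD was 0.34 for Ace, 0.34 for Nlg1 and 0.38 for Nlg4, against a median of 0.36 over all named genes. In nitenpyram larvae Nlg3 had 0.08, 0.86, -0.03 and 0.48, and the fitted ratio of 0.35 ± 0.14 had an unadjusted p of 0.0237 and an adjusted p of 0.755. In phenobarbital larvae it had -0.56, 0.25, -0.23 and -0.0005, with a fitted ratio of -0.13 ± 0.14 that was not called.

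That narrow average joined spots that did not read alike. The 12 Nlg3 spots fell by their printing pattern into 3 sets of 4, a split made after the values had been seen. RefSeq lists 5 CG names, each the name of a gene model, under Nlg3, and which of them each set was made for was not analysed here. Set 1 repeated well, with 11.0% of small whole-number values, a median gap between sites of 0.29 and values in 136 of 136 places. Set 2 had 25.8%, a gap of 0.91 and 132 values, and set 3 had 65.3%, a gap of 1.38 and 95 values of 136.

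In phenobarbital larvae, with the named genes as centre, sets 1 and 2 of Nlg3 moved in opposite directions. Set 1 had 1.22, 0.30, 1.31 and 0.11 on the arrays, all above 0, and a fitted ratio of 0.73 ± 0.18 (adjusted p = 0.00105). Set 2 had -2.21, -0.30, -1.50 and -0.28, all below 0, and a fitted ratio of -1.07 ± 0.27 (adjusted p = 0.00165). Each would have been called if it alone had stood for Nlg3, with arrays centred as above. The sets were not fitted with another centre. On the control genes Ace moved from -0.03 to 0.69 in these larvae, so the side of 0 and the call of a set may depend on the centre. Within an array the difference of set 1 from set 2 does not depend on centring, and it was above 0 on 4 of 4 arrays, from 0.38 to 3.43. Set 3 had -0.71, 0.79, -0.52 and 0.12 and a fitted ratio of -0.08 ± 0.45.

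In DDT males the same difference was above 0 on 3 of 3 arrays, from 0.70 to 1.37, with fitted ratios of 0.40 ± 0.21 for set 1 and -0.33 ± 0.32 for set 2, neither called. In phenobarbital males it was above 0 on 2 of 3 arrays and in each of the other larval exposures on 2 of 4. Set 3 was called in nitenpyram larvae at 2.72 ± 0.65 (adjusted p = 0.025). It had values there on 2 of 4 arrays, 3.25 and 2.04, both with the exposed pool in Cy3. These were 3 called values among the 27 pairs of spot set and exposure, and the average over the 12 spots had none. Of all genes as reported, 43.4% were called in phenobarbital larvae and 0.629% in nitenpyram larvae.

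**Figure D3:**
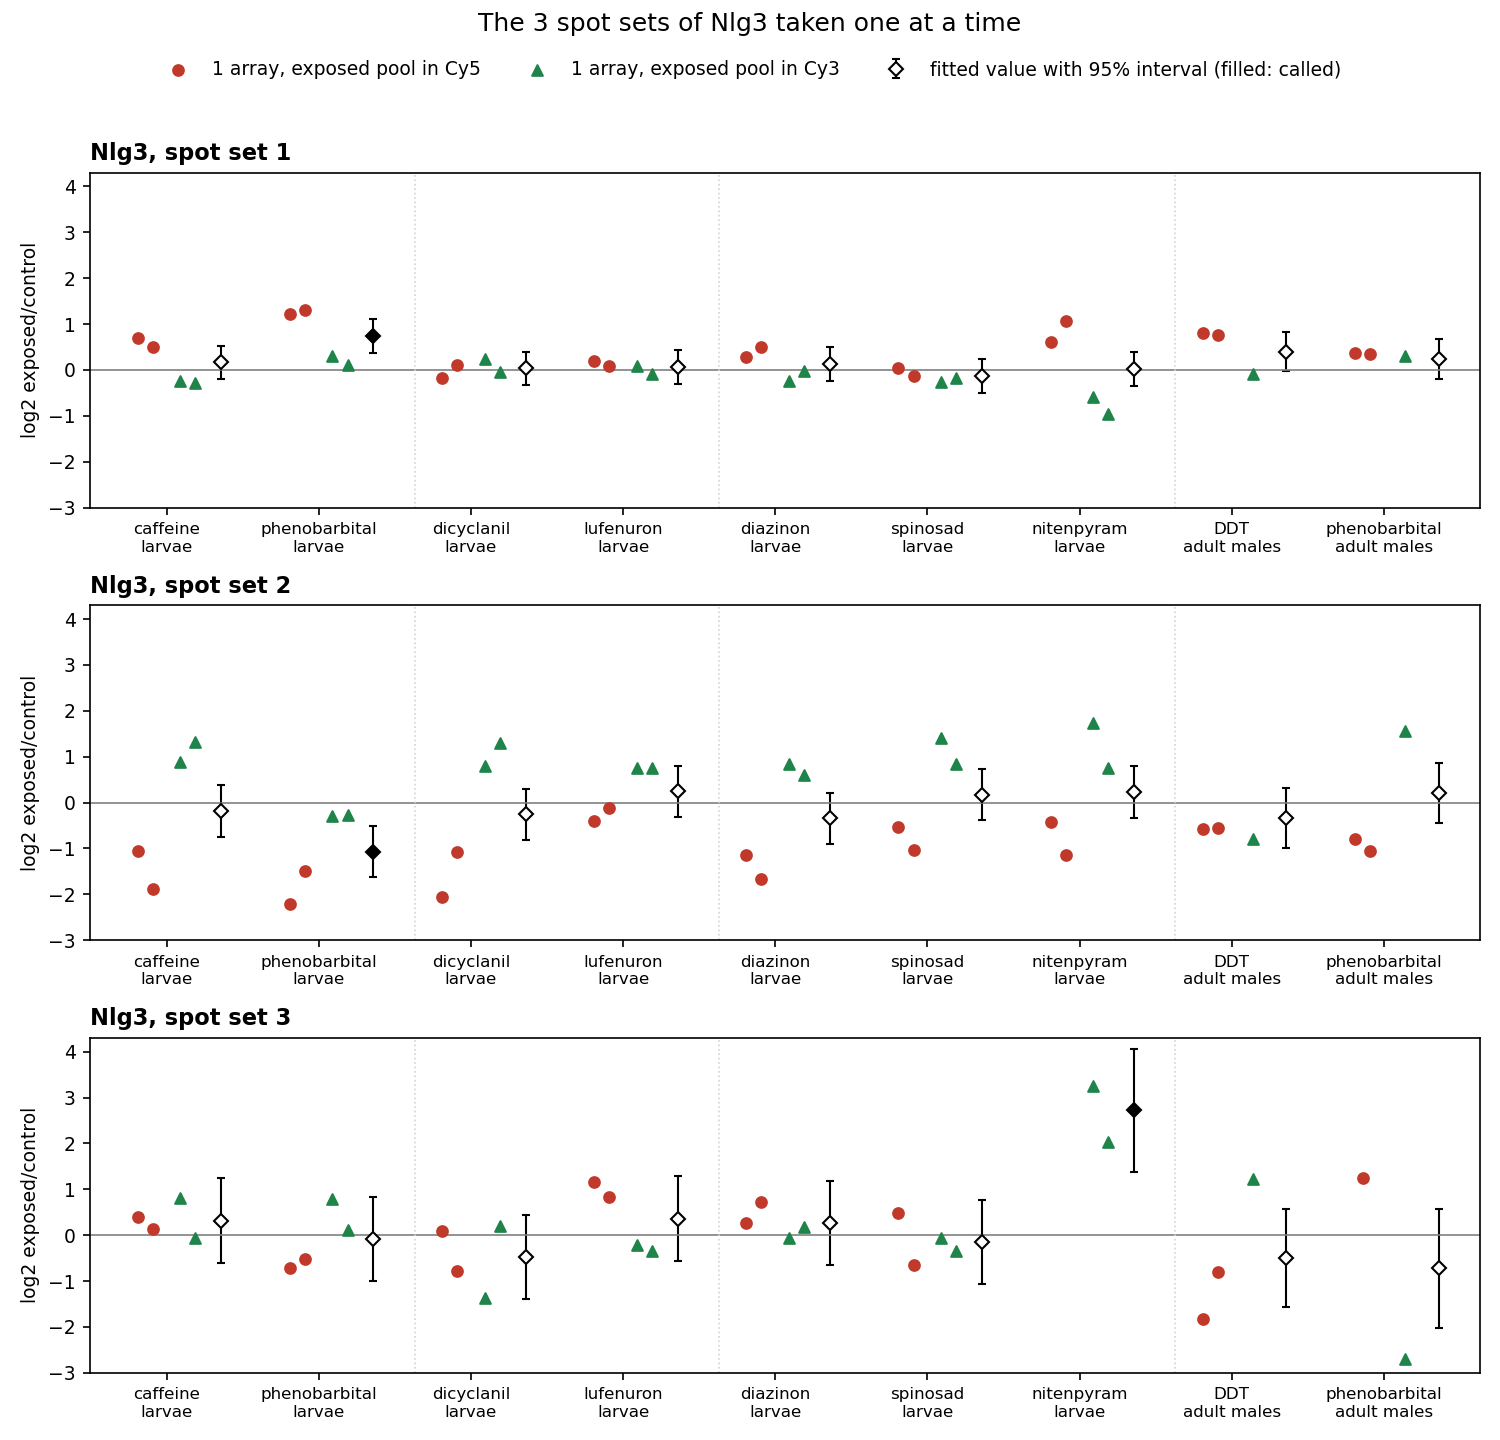
Log2 ratio of exposed over control (vertical axis) by exposure (horizontal axis) for each of the 3 spot sets of Nlg3, with arrays as red circles (exposed pool in Cy5) or green triangles (Cy3) and fitted values with 95% intervals as diamonds, filled where called. In phenobarbital larvae set 1 lies above 0 at 0.73 and set 2 below 0 at -1.07.

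The nerve-acting insecticides were then set apart from the other compounds, with each pool pair as 1 value. Those others include caffeine and phenobarbital, which also act on nerve cells in animals. The grouping thus sets apart insecticides with a nerve target and not all compounds with a nerve action. Ace averaged 0.08 ± 0.19 in larvae given diazinon, spinosad or nitenpyram and -0.09 ± 0.07 in the other larval exposures (SD, n = 3 and 4). The difference of 0.17 ± 0.15 (SE, 95% interval -0.19 to 0.53) was not called, and an exact two-sided permutation test over the 35 splits gave p = 0.229, where 0.0571 is the smallest it allows. The neuroligins differed by 0.30 ± 0.25 for Nlg1, 0.11 ± 0.19 for Nlg3 and 0.05 ± 0.22 for Nlg4, and none was called. No gene on the array was called in this comparison (0%), and limma gave 6 an unadjusted p under 0.05.

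Against the growth regulators alone the same 3 insecticides gave differences of 0.22 ± 0.17 for Ace, -0.06 ± 0.15 for Nlg1, 0.12 ± 0.20 for Nlg3 and -0.13 ± 0.16 for Nlg4. None was called, as for every gene on the array (0%, with 6 at an unadjusted p under 0.05). DDT males were then added, with life stage as a term. Ace averaged 0.27 ± 0.40 in the 4 exposures to nerve-acting insecticides and -0.15 ± 0.14 in the other 5, caffeine and phenobarbital included (SD). These averages are not adjusted for stage. With the stage term the difference was 0.40 ± 0.20 (SE, 95% interval -0.05 to 0.86), with an adjusted p of 0.391 in limma. An exact two-sided permutation test within life stages gave p = 0.114, where the smallest possible p was 0.0286. Without DDT males the difference was 0.17. The neuroligins differed by 0.12 to 0.15, with SEs of 0.16 to 0.24, and no gene was called (0%, with 16 at an unadjusted p under 0.05).

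The inducers caffeine and phenobarbital differed from the 5 larval insecticides in Nlg1. Its ratios were -0.74 with phenobarbital and -0.34 with caffeine, which averaged -0.54 ± 0.28, against 0.14 ± 0.08 over the insecticides, which lay between 0.07 and 0.23 (SD, n = 2 and 5). The difference was -0.68 ± 0.16 (SE, 95% interval -1.04 to -0.32, adjusted p = 0.0182), and 45 genes or 28.3% of those tested were called. Without phenobarbital larvae the Nlg1 difference was -0.48 and not called, and without caffeine larvae Nlg4 was called too, at -0.63. Ace (-0.03 ± 0.17), Nlg3 (-0.06 ± 0.19) and Nlg4 (-0.28 ± 0.20) were not called. As in phenobarbital larvae alone, the value moved with the centre of the arrays: with values as deposited Nlg1 differed by 0.12, and centred on the control genes by -0.03, where Ace (0.62) and Nlg3 (0.58) were called higher in the inducers.

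Phenobarbital was given to larvae and to adult males by different routes and doses, so the stages are set side by side as measured. Each stage was 1 pair of pools, and the contrast was taken in the fit over arrays with the 1.5-fold threshold, so its p compares these pools and not life stages. Nlg1 was lower in phenobarbital larvae than in phenobarbital males relative to their own controls, by -1.05 ± 0.33 (95% interval -1.73 to -0.36, adjusted p = 0.0229), and 28 genes or 17.6% of those tested were called. Without the lone Cy3 array of the males the value was -0.57, without array 1 of the larvae -0.96 and without array 2 of the larvae -1.02, and none of these was called. Centred on the control genes Nlg1 differed by -0.56 and was not called (adjusted p = 0.412), and Ace differed by 0.83 and was (adjusted p = 0.000933). With the centre used throughout Ace differed by 0.34 ± 0.31, Nlg3 by 0.06 ± 0.22 and Nlg4 by 0.34 ± 0.45, none of them called. Averaged over all 7 larval exposures, the genes lay between -0.05 and 0.03, with SEs of 0.08 to 0.13, and no gene on the array was called (0%, with 15 at an unadjusted p under 0.05).

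**Figure D4:**
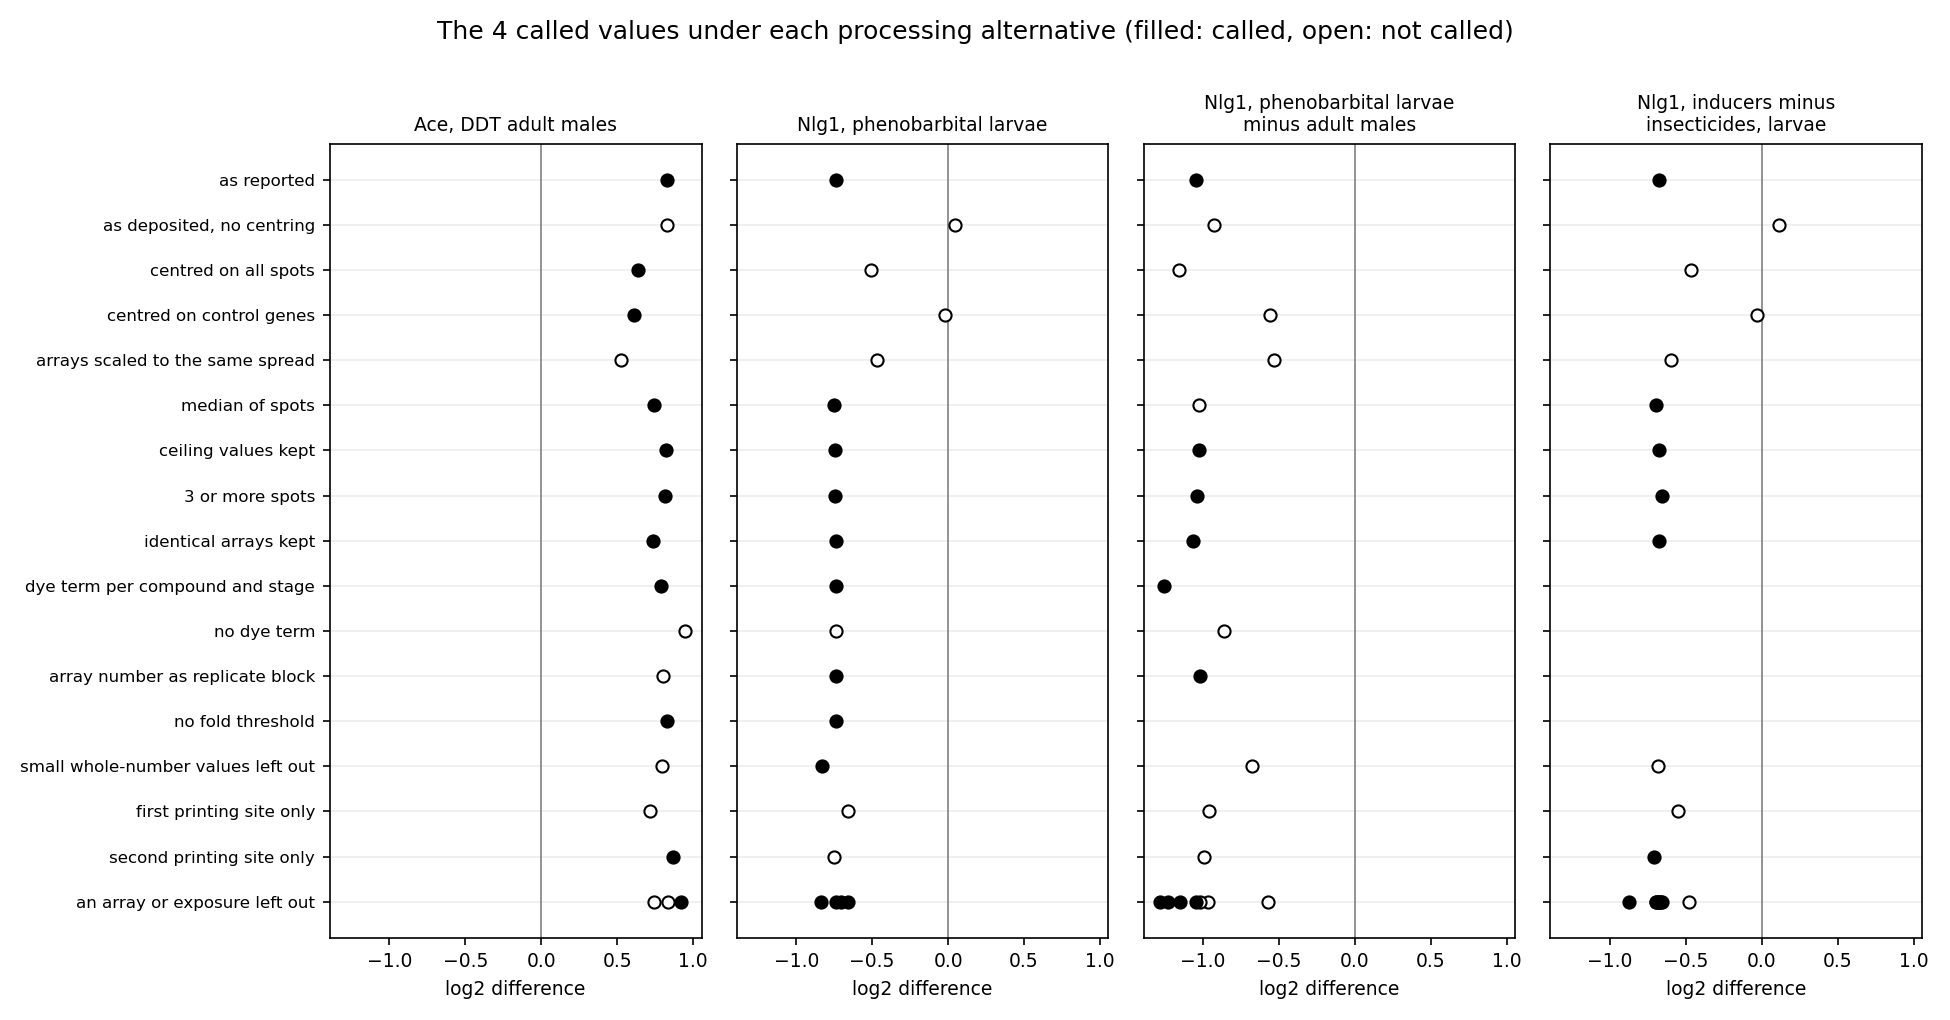
The 4 called values (panels) as log2 ratios or differences on the horizontal axis, under each way of processing on the vertical axis, with filled points called and open points not called. Ace in DDT males stays between 0.52 and 0.94, and Nlg1 in phenobarbital larvae runs from -0.84 to 0.044.

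By their symbols 13 other genes on the array were taken as members of the esterase fold. Among them were 8 of the alpha-esterases, carboxylesterases that sit together in a cluster. Genes known only by a CG symbol were searched by their RefSeq synonyms and none matched. Any esterases among those are therefore missing from this partial list. In phenobarbital larvae 0 of the 13 were called higher and 5 lower, against 22.6% of all genes higher and 20.8% lower. The list median there was -0.62, against -0.15 over all genes and -0.34 over Ace and the neuroligins. These calls also moved with the centre: on the control genes 2 of the 13 were called higher, alpha-Est2 and alpha-Est3, and 0 lower, with a list median of 0.09 against 0.56 over all genes, of which 42.1% were higher and 1.89% lower. As deposited 1 was called higher and 0 lower, with medians of 0.16 for the list and 0.63 for all genes. A change of centre moves all genes of an array alike. The gap between the list median and that of all genes therefore stays the same with each centre and is no separate result. With the named genes as centre the 3 with the largest ratios were alpha-Est6 at -1.32 ± 0.44 (adjusted p = 0.0138), Jhedup, named for its likeness to juvenile hormone esterase, at -1.05 ± 0.23 (adjusted p = 0.000298) and gas at -0.97 ± 0.20 (adjusted p = 0.000165). In DDT males, where Ace was higher, 0 were higher and 1 lower (4.4% and 1.89% of all genes), alpha-Est2 at -0.90 ± 0.19 (adjusted p = 0.0039), and the list median was 0.08, against 0.03 over all genes. The other 7 exposures called none of the 13. Their list medians there ran from -0.29 in phenobarbital males to 0.14 in lufenuron larvae.

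Profiles over the 9 exposures were compared by Pearson's r as a description, over values that share arrays and their centring. The genes most like Ace were GstD8 (r = 0.75), Cyp9c1 (0.74) and GstT3 (0.69). GstD8, a glutathione S-transferase, was called in DDT males at 0.89 ± 0.27 (adjusted p = 0.0398), its highest value, as it was for Ace. It was picked by r over these same values, so that call is no separate result. In diazinon, dicyclanil, lufenuron, nitenpyram and spinosad larvae Ace and GstD8 had opposite signs, so their likeness rested largely on DDT males. Nlg1 was most like GstE14 (0.91), CAH1 (0.85) and Ppcs (0.84). CAH1 at -0.82 ± 0.18 and Ppcs at -1.10 ± 0.17 were called lower in phenobarbital larvae, with the named genes as centre. Nlg1 was lowest in those larvae, and these genes were picked by r with it, so their calls are no separate result. In the other exposures Ppcs lay between -0.12 in DDT males and 0.14 in diazinon larvae, so its likeness to Nlg1 rested largely on phenobarbital larvae. Nlg3 was most like alpha-Est7 (0.77), Est-P (0.71) and CG10175 (0.64), and Nlg4 like the P450 genes Cyp28d2 (0.82), Cyp313b1 (0.80) and Cyp4ad1 (0.80). Among the 4 genes themselves r ran from -0.27 for Ace and Nlg1 to 0.57 for Nlg3 and Nlg4. Nlg1 and Nlg3, which are neighbours in the Release 6 annotation of RefSeq with 0 genes lying wholly between them, had r = 0.17.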

How the data were processed

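Two-colour spotted arrays were analysed from the table of processed values. It held log2 ratios of the dyes, as deposited. limma is the tool that stands in the submitters' processing notes, and its version, normalization and background handling are not given in the sources used here. The table had 36 arrays and 1936 spots, 656 with 1 gene symbol, 8 with several and 1272 with none. Missing were 8543 empty values and 2301 at a ceiling of 16.61 (log2 of 100000). Of the 159 named genes 158 were found in RefSeq.

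The values had not been turned to exposed over control: 77 of 668 unnamed spots with a value on all 34 arrays kept to the same side of 0 on every array after turning by dye, and 24 did so before turning. Opposite orientations correlated at a mean r of -0.90 in phenobarbital larvae before turning, and at 0.12 to 0.54 in 6 other exposures.

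Spots were averaged per gene and array. The median over named genes was subtracted on each array, a step that the written design had not assumed. limma 3.58.1 in R 4.3.3 fitted 9 exposure terms and a common dye term, in which phenobarbital larvae were also set against phenobarbital males with the 1.5-fold threshold. The other comparisons between exposures used 1 value per pool pair at an adjusted p under 0.05 with no fold threshold. Nothing in the labels shows separate cultures behind the arrays of an exposure. The number of arrays limits the precision. Tables were read with pandas 2.3.3 in Python 3.11.15.

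The text names the 4 genes, the 3 genes most like each over the 9 exposures, up to 3 called genes per exposure among the other esterase-fold genes, and 4 control genes. These members and lists were chosen with earlier results of these data known. Alternatives covered centring, scaling, spot averaging, missing values, the dye term, a block, thresholds and left-out arrays and exposures. Those on printing sites, Nlg3 spot sets and small whole-number values were added after seeing the data.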

Additional observations from a re-analysis of the deposited data

Results flagged for a closer look

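The Nlg1 ratio with phenobarbital differed between the pool pair of the larvae and that of the adult males by the test of the difference itself. Each stage was 1 pair of pools and the p rests on technical arrays, so life stages were not compared beyond these pools. The ratio was -0.74 ± 0.22 in larvae and 0.31 ± 0.25 in adult males, a difference of -1.05 ± 0.33 (SE, limma adjusted p = 0.0229). Doses and routes differed between the stages as well, so stage and dose cannot be told apart. Without the only Cy3 array of the males the difference was -0.57 and not called, and centred on control genes it was -0.56 and not called (adjusted p = 0.412). In none of the 28 sets of 4 larval arrays did a member have an array apart from the others by Dixon's criterion. Where arrays split by dye orientation each extreme value has a neighbour, so the criterion could hardly single 1 out. The arrays of the males were not covered by it.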

How the results depend on the processing

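Among the 36 pairs of gene and exposure the count of calls, 2 as reported, was 1 with values as deposited, centring on all spots, arrays scaled to a common spread, the array number as a replicate block, or small whole-number values left out. These were not always the same calls. As deposited both were lost and Ace in phenobarbital larvae was called (0.75). With scaling both were lost and Nlg4 in phenobarbital males was called (-1.13). Ace in DDT males was the call kept on all spots (0.63), and Nlg1 in phenobarbital larvae the one kept with the block (-0.74) and with small whole-number values left out (-0.83). On control genes the count stayed at 2, but of Ace in DDT males (0.61) and in phenobarbital larvae (0.69). With a dye term per exposure both calls were kept and Nlg4 in phenobarbital males was added (-1.02). With the second printing site alone Ace in DDT males (0.86) and Nlg4 in phenobarbital males (-2.39) were called, and Nlg1 in phenobarbital larvae was not. The count was 0 with no dye term or the first printing site alone, and 1 to 3 when an array was left out. For phenobarbital in larvae against adult males it was 1 as reported and 0 with values as deposited, centring on all spots, scaling, spot medians, no dye term, small whole-number values left out, or either printing site alone, and 0 to 1 when an array was left out. On control genes the 1 was Ace (0.83) and not Nlg1 (-0.56). For inducers against insecticides it was 1 as reported, 0 with values as deposited, centring on all spots, scaling, small whole-number values left out or the first printing site alone, 2 with centring on control genes, and 0 to 2 when an exposure was left out. The other 5 comparisons between exposures called no member under the alternatives run.

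Of the 1207 single-gene values under alternatives, 180 changed sign without a call. Where a call was involved, signs turned in 7 cases. In phenobarbital larvae Ace was 0.75 as deposited and 0.69 on control genes, Nlg1 0.044 as deposited, and Nlg3 0.73 with spot set 1 alone. For inducers against insecticides Nlg1 was 0.12 as deposited, and on control genes Ace was 0.62 and Nlg3 0.58. Deposited values differ from the reported ones only in the missing centring, and the cause of the other changes was not tested. Of the 78 alternatives run on the 4 called values of single genes, 44 kept the call: 10 of 18 for Ace in DDT males, 12 of 19 for Nlg1 in phenobarbital larvae, 9 of 21 for Nlg1 in larvae against males and 13 of 20 for Nlg1 in inducers against insecticides. The count of called genes over the whole array ran from 0 to 20 in DDT males, 39 to 75 in phenobarbital larvae, 21 to 44 in phenobarbital males, 18 to 47 in caffeine larvae, 0 to 11 with dicyclanil, 0 to 7 with lufenuron, and 18 to 76 for inducers against insecticides.

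Arrays of the same number in different exposures were about as alike as arrays of other numbers with the same dye. Residuals of the fit with exposure and dye terms correlated at a mean r of -0.07 between arrays of the same number (from -0.61 to 0.55 over 129 pairs). The mean r was -0.09 between other numbers of the same dye and 0.08 between opposite dyes. These residuals sum to 0 within each exposure, which limits what they can show of a pairing by number. With the number as a replicate block the Ace ratio in DDT males was 0.80 (limma adjusted p = 0.0536). No signal over background was at hand, so depth limits cannot be stated.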
